A study of Mus musculus with 16 samples.

Results

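The Wnt signalling system was followed through 10 of its genes in flexor tendon of C57 and MRL mice: the ligands Wnt2, Wnt5a and Wnt5b and the secreted antagonists Frzb, Sfrp1, Sfrp2, Sfrp4, Wif1, Dkk2 and Dkk3. They were taken by gene symbol, and all 10 were found among the 49568 rows of the count table. Frzb was chosen for its difference between the strains without injury and Wnt5b for its rise after injury in MRL, so these values, and others that rest on the same libraries, are given as a description with no test. The libraries came from male mice of 9 to 11 weeks. C57BL/6J (C57) is a standard inbred strain, and MRL/MpJ (MRL) is an inbred strain known for unusually good healing of several tissues. The deep digital flexor tendon of the third hind digit was either left uninjured or partially lacerated and collected at 7 days post injury (dpi), and each of the 4 groups (C57 uninjured, C57 at 7 dpi, MRL uninjured and MRL at 7 dpi) had 4 libraries. Each library was made from tissue of 1 tendon, taken at the injury site with the sheath and neighbouring tissue still attached, so that the RNA is a mixture of cell types.

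Wnt proteins are secreted lipid-modified ligands that bind Frizzled receptors, alone or with the co-receptors Lrp5 and Lrp6. With the co-receptors they stabilise beta-catenin, which acts with TCF and LEF factors on target genes, while Wnt5a and Wnt5b are best known for signalling without beta-catenin. Secreted antagonists act outside the cell: the frizzled-related proteins (Frzb, Sfrp1, Sfrp2 and Sfrp4) and Wif1 bind the ligands themselves, whereas Dkk family proteins act on Lrp5 and Lrp6, with Dkk3 as a divergent member that is not a typical inhibitor. In skeletal tissue the balance of ligands and antagonists is known to bear on cartilage, bone and connective tissue formation.

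On GRCm38 the ligand genes lie at chr6:17988940-18030585 (Wnt2, minus strand), chr14:28504750-28527448 (Wnt5a, plus strand) and chr6:119432531-119544347 (Wnt5b, minus strand). The frizzled-related genes lie at chr2:80411970-80447625 (Frzb, minus strand), chr8:23411502-23449632 (Sfrp1, plus strand), chr3:83766321-83774316 (Sfrp2, plus strand) and chr13:19623104-19632994 (Sfrp4, plus strand). The others lie at chr10:121033960-121100650 (Wif1, plus strand), chr3:132085292-132180304 (Dkk2, plus strand) and chr7:112116017-112159057 (Dkk3, minus strand).

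Promoter sequence upstream of the annotated start was taken from RefSeq on GRCm38.p6 for the 6 members with an entry (Dkk2, Frzb, Sfrp2, Wif1, Wnt2 and Wnt5b). The stretches shown are from members whose levels are described next: Sfrp2 and Wnt2, higher in injured C57 tendon, Dkk2 and Wif1, higher in 3 of the 4 libraries labelled uninjured MRL, and Wnt5b, higher in injured MRL tendon. They lie at chr3:83766071-83766320 on the plus strand (Sfrp2), chr6:18030586-18030695 on the minus strand (Wnt2), chr3:132085042-132085291 on the plus strand (Dkk2), chr10:121033754-121033959 on the plus strand (Wif1) and chr6:119449387-119449636 on the minus strand (of 3 starts of Wnt5b, the one furthest downstream). Bases that the gene annotation counts as exon were left out. Each is written 5′ to 3′ on the strand of its gene, with capitals on a TCF/LEF motif or a TATA box motif.
Sfrp2: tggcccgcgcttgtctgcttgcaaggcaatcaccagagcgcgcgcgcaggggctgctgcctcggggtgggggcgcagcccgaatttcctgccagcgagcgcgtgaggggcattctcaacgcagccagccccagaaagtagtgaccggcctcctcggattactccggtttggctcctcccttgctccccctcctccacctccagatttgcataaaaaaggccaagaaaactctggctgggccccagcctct
Wnt2: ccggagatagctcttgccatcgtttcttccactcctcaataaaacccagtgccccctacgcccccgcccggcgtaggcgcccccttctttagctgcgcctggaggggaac
Dkk2: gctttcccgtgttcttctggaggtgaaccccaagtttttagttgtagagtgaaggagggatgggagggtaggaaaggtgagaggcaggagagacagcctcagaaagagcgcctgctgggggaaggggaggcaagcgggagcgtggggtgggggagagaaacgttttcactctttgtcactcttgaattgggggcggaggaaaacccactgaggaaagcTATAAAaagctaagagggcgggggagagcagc
Wif1: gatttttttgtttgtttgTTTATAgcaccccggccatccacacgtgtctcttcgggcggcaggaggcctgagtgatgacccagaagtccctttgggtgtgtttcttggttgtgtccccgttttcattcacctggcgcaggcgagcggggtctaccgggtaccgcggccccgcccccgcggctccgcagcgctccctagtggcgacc
Wnt5b: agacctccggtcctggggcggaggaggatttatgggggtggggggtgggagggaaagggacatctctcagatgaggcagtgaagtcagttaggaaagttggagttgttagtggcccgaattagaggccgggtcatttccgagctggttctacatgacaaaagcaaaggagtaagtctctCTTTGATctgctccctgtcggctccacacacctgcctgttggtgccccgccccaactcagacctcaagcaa
The TCF/LEF motifs CTTTGAT and CTTTGAA and the TATA box motif TATAAA were searched on both strands of the 250 bases before each start. Wnt5b held CTTTGAT 71 bases before the most downstream of its 3 starts and in neither window of the other 2, a motif present in 3.21% of 32851 promoters, and CTTTGAA (4.46% of promoters) was found in none of the 8 windows of these 6 genes. Dkk2 held TATAAA 32 bases before its start and Wif1 held it on the opposite strand 232 bases before its start, against 12.4% of all promoters. A match describes the letters in this window and does not show that a factor binds there.

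**Figure D1:**
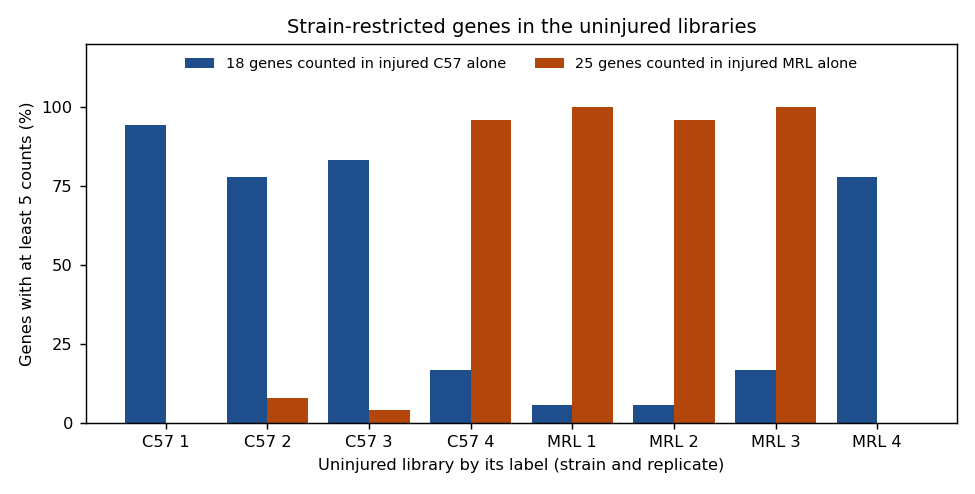
Share of strain-restricted genes with at least 5 counts (y axis, percent) in each uninjured library, named by its label (x axis). Blue bars are 18 genes counted in injured C57 libraries alone and brown bars are 25 genes counted in injured MRL libraries alone; in the number of genes detected, the libraries labelled replicate 4 of both strains are like the opposite strain.

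The total count ranged from 12552424 to 23741648 per library, and the injured MRL libraries were the deepest (18524170 to 23741648). All 9 tenocyte markers searched were counted in all 16 libraries, except Kera, which was at 0 in 1. In the 8 injured libraries, 18 genes had at least 20 counts in every C57 library and at most 1 in every MRL library, and 25 genes had the opposite pattern. Uninjured C57 replicates 1 to 3 had at least 5 counts for 14 to 17 of the 18 C57 genes and for 0 to 2 of the 25 MRL genes, and uninjured MRL replicates 1 to 3 for 1 to 3 and 24 to 25. The library labelled C57 uninjured replicate 4 had 3 of the 18 and 24 of the 25, and the library labelled MRL uninjured replicate 4 had 14 of the 18 and 0 of the 25. In the number of these genes detected, both libraries therefore went against the strain on their labels, as the plot of strain-restricted genes shows. Other measures did not all run this way. In the library labelled C57 uninjured replicate 4 the counts of the 18 C57 genes summed to 1113, against 904 to 1191 in C57 replicates 1 to 3 and 16 to 51 in MRL replicates 1 to 3, and those of the 25 MRL genes summed to 14302, against 1458 to 1790 in MRL replicates 1 to 3. In the library labelled MRL uninjured replicate 4 these sums were 1010 and 10. The summed level of 7 cartilage markers was 155 CPM (counts scaled to library size) in the one labelled C57, with 179 to 269 CPM in the other 3 of its group, and 455 CPM in the one labelled MRL, with 424 to 555 CPM in the other 3. In Spearman correlations of log2 CPM, the library labelled MRL uninjured replicate 4 reached 0.964 with the uninjured C57 group and 0.941 with its own. The one labelled C57 uninjured replicate 4 reached 0.832 with the uninjured MRL group and 0.834 with its own. The groups were kept as labelled, and the members' fold changes that rest on these libraries are given with and without them. The library labelled C57 uninjured replicate 4 also stood apart in 12 epidermis markers, whose summed level was 86544 CPM there against 76.6 to 861 CPM in the other uninjured libraries. Its 6 cell cycle markers summed to 180 CPM (5.64 to 9.54 CPM in the other 3 of its group). Its 9 tenocyte markers summed to 18639 CPM (40055 to 45859 CPM), and its 6 markers of sheath and connective tissue fibroblasts to 2005 CPM (4937 to 10550 CPM). In 12 skeletal muscle markers the injured C57 libraries BI-181 and BI-183 had sums of 63347 and 1995 CPM, against at most 19.98 CPM in the other 14 libraries.

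Set per kilobase of exon, so that genes can be compared with each other, Wif1, Dkk3 and Frzb stood above the ligands in every group. Wif1, which binds Wnt ligands directly, had the highest mean level in every group, from 107 ± 37.6 CPM per kilobase (SD, n = 4) in injured C57 to 983 ± 546 in uninjured MRL tendons. Dkk3 followed in each group with 59.2 to 132 CPM per kilobase in group means, while in all groups Frzb lay between 14.6 ± 6.37 and 108 ± 28.5 CPM per kilobase. The group means of the 3 ligands did not exceed 12.9 ± 5.43 CPM per kilobase, the level of Wnt5b in injured MRL tendons. In MRL tendons the gap between Dkk3 and Frzb was smaller than the SD of Frzb, both without injury (132 ± 4.57 and 108 ± 28.5 CPM per kilobase) and at 7 dpi (65.8 ± 25 and 53.5 ± 46.2 CPM per kilobase). Frzb exceeded Dkk3 in MRL uninjured replicate 1 (144 against 132 CPM per kilobase) and in the injured library BI-274 (112 against 84.0 CPM per kilobase).

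**Figure D2:**
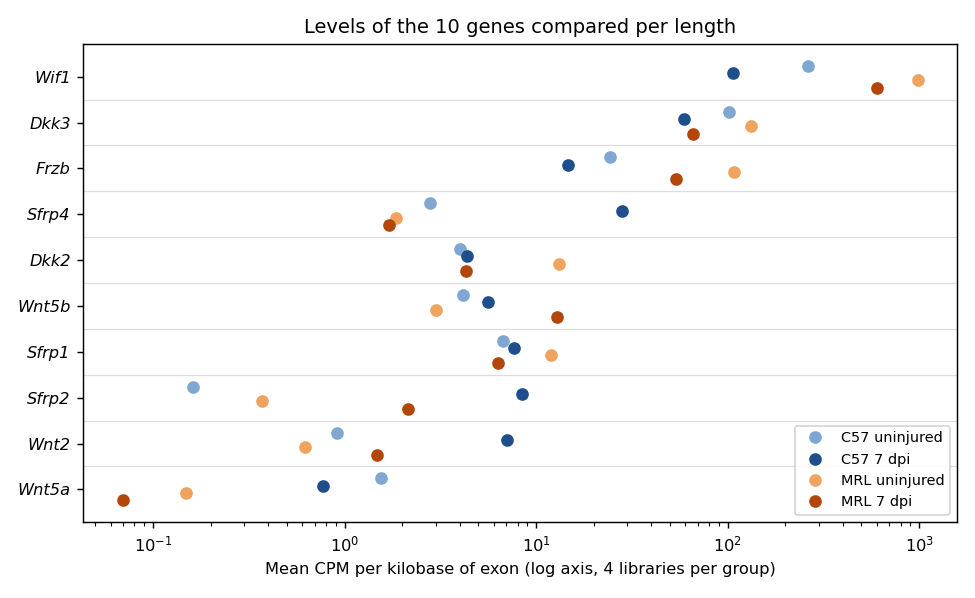
Mean level of each of the 10 genes in each group of 4 libraries (x axis, CPM per kilobase of exon, log axis). Wif1 lies highest in every group, Sfrp4, Sfrp2 and Wnt2 lie furthest to the right in injured C57 tendons, and Wnt5a lies lowest in injured MRL tendons at 0.0699 CPM per kilobase.

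The members that passed the test differed between the comparisons. Genes were called at an adjusted p under 0.05 with an absolute log2 fold change over 1 (edgeR quasi-likelihood test, Benjamini-Hochberg over all genes tested). With injury in C57, 1 of 9 tested members was called, Sfrp4, against 1.07% of 14424 genes tested (0.908% called higher and 0.166% lower). Without the library labelled C57 uninjured replicate 4, there were 4 of 9 (Wnt2, Sfrp2 and Sfrp4 higher, Dkk3 lower), against 5.01% of 14983 genes (3.5% higher and 1.51% lower), and DESeq2 with all libraries called Wnt2, Sfrp2 and Sfrp4, against 3.37% of 26926 genes. With injury in MRL, Dkk3 was called lower, against 7.41% of 14274 genes (5.25% higher and 2.15% lower), and without the library labelled MRL uninjured replicate 4 no tested member was (6.11% of 14868 genes), with Wnt5b and Frzb set aside as chosen on libraries of this comparison and Wnt5a too low to be tested among all libraries. Without injury, edgeR called 0 of 14055 genes between the strains, members included, although 1106 genes (7.87%) had an unadjusted p under 0.05 and DESeq2 called 104 (0.392%) with no tested member among them. Without both libraries labelled replicate 4, it called 3 members higher in MRL (Sfrp1, Wif1 and Dkk2), against 3.48% of 14274 genes (2.07% higher). Between the injured groups, which hold none of the doubtful uninjured libraries, 3 members were called (Wnt2 and Sfrp4 lower and Wif1 higher in MRL), against 3.43% of 14626 genes (1.55% higher and 1.88% lower). DESeq2 also called Wnt5a and Sfrp2 lower and Frzb higher there, 6 tested members in all, against 5.5% of 27090 genes. Without BI-181, DESeq2 no longer called Frzb. The injured and uninjured comparisons of a strain share libraries with the comparisons between strains, and they are therefore set side by side rather than against each other.

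**Figure D3:**
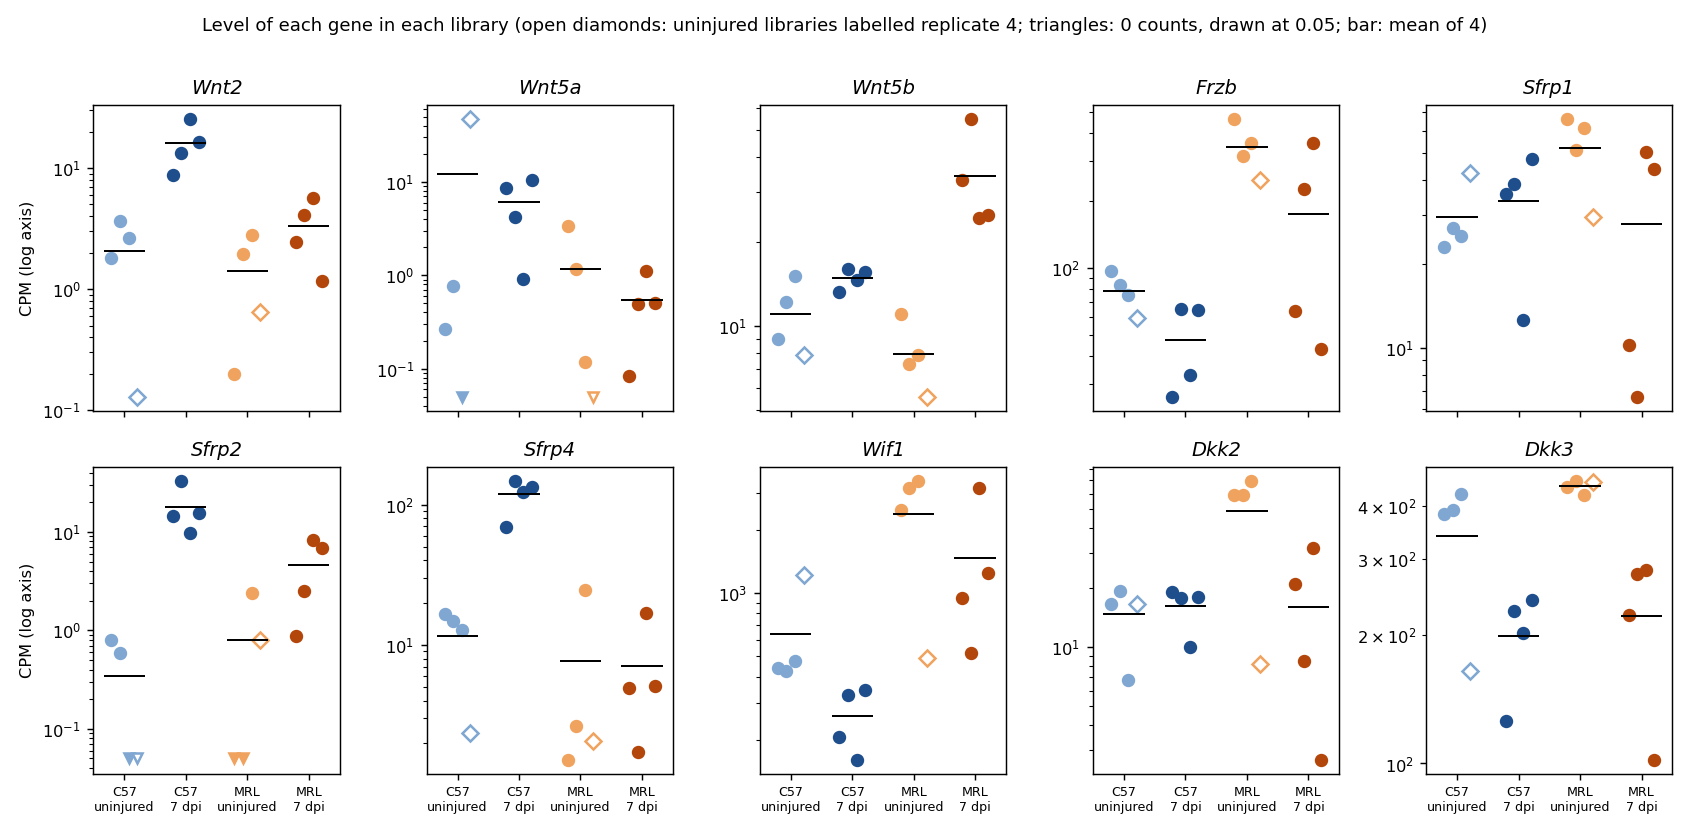
Level of each gene in each library (y axis, CPM, log axis) in the 4 groups (x axis); each point is 1 library, open diamonds are the uninjured libraries labelled replicate 4, triangles are libraries with 0 counts drawn at 0.05, and bars are the means of 4 libraries. Sfrp2, Sfrp4 and Wnt2 show injured C57 libraries above every library of the other groups, and Wif1 shows 3 uninjured MRL libraries far above the library labelled MRL uninjured replicate 4.

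Wnt2, a ligand best known for signalling through beta-catenin, was highest in injured C57 tendons. Its levels there were 8.70, 13.3, 25.5 and 16.3 CPM, against 1.81, 3.63, 2.62 and 0.128 CPM in uninjured C57 tendons. Every injured C57 library lay above every uninjured one, as held for 7.2% of 15947 genes. Its log2 fold change of 2.92 (SE 0.78) was not called (adjusted p = 0.13). It was called without the library labelled C57 uninjured replicate 4, which held just 2 counts of Wnt2, at a log2 fold change of 2.52 (SE 0.45). In MRL, Wnt2 was counted at 0.199, 1.95, 2.80 and 0.643 CPM without injury and at 2.44, 4.08, 5.69 and 1.17 CPM at 7 dpi, and these groups overlapped (log2 fold change 1.25, SE 0.85, adjusted p = 0.367, and 1.04, SE 0.91, without the library labelled MRL uninjured replicate 4). Between the injured tendons all MRL libraries lay below all C57 libraries, with a log2 fold change of -2.27 (SE 0.52, adjusted p = 0.042), that is a level 4.83-fold lower in MRL (7.42% of genes did not overlap in this direction). Dropping single libraries ended this call in 6 of 8 cases, all but BI-181 and BI-274, while the log2 fold change stayed between -2.61 and -1.94. The call was also lost in 1 fit of all 16 libraries (adjusted p = 0.148).

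Wnt5a, a ligand known for signalling without beta-catenin, was counted at very low levels in most libraries. Its levels were 0.269, 0.777, 0 and 47.5 CPM in uninjured C57 and 8.52, 4.25, 0.908 and 10.4 CPM in injured C57 tendons. The value of 47.5 CPM belongs to the library labelled C57 uninjured replicate 4, in which the epidermis markers were also high; their part in it was not tested. With injury in C57 the log2 fold change was -1.08 (SE 1.72) with this library and 4.04 (SE 1.17) without it, so that its direction turned on this library. edgeR called it in neither fit, and DESeq2 called it without this library (log2 fold change 4.12). Uninjured MRL tendons had 3.38, 1.15, 0.119 and 0 CPM and injured MRL tendons 0.084, 0.499, 1.1 and 0.501 CPM. The injured C57 libraries were thus mostly higher than the injured MRL libraries, with a log2 fold change of -3.49 in MRL (SE 0.92) that was not called by edgeR (adjusted p = 0.065). Among 8 fits with a single library dropped it was called in 1, without BI-184 (log2 fold change -3.85, SE 0.80, adjusted p = 0.0451). In all, 3 of the 4 injured MRL libraries lay below the lowest injured C57 library. Wnt5a overlaps the antisense gene Gm2670, and since the strand setting of the counting is not known, their reads cannot be told apart.

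Wnt5b, the close relative of Wnt5a, lay between 7.85 and 16.02 CPM in all C57 libraries. It had 9.0, 12.2, 15.0 and 7.85 CPM in uninjured and 13.2, 16.02, 14.5 and 15.5 CPM in injured C57 tendons, a log2 fold change of 0.39 (SE 0.29, adjusted p = 0.565) and of 0.26 (SE 0.26, adjusted p = 0.62) without the library labelled C57 uninjured replicate 4. The MRL values, for which the gene was chosen, were 11, 7.28, 7.88 and 5.54 CPM without injury and 33.1, 55.0, 24.2 and 24.8 CPM at 7 dpi. The lowest injured MRL library was thus above every library of the other groups. The share of genes for which this held against all groups at once was not taken. In injured MRL, 12.4% of genes lay higher without overlap than in uninjured MRL, and 7.78% than in injured C57 tendons. The log2 fold change was 2.12 (SE 0.33) with injury in MRL, 1.99 (SE 0.35) without the library labelled MRL uninjured replicate 4, 1.17 (SE 0.28) in injured MRL over injured C57 tendons and -0.50 (SE 0.35) in uninjured MRL over uninjured C57 tendons (-0.48, SE 0.33, without both libraries labelled replicate 4). The term for the difference between the injury effects of the strains was 1.68 (SE 0.43) on the log2 scale and 1.67 (SE 0.43) without both libraries labelled replicate 4, again without a test. Wnt5b overlaps the protein-coding gene Fbxl14 on the opposite strand. The CTTTGAT motif printed above lies at the most downstream of its 3 starts, and the counts do not separate the starts. The 6 cell cycle markers summed to 2.65 to 8.15 CPM in uninjured and 155 to 547 CPM in injured MRL tendons. In C57 these sums were 5.64 to 180 CPM and 45.8 to 275 CPM, and the part of these markers in Wnt5b was not tested.

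Frzb, a frizzled-related protein first described in cartilage, was chosen for its strain difference without injury. It had 96.4, 83.8, 75 and 59.1 CPM in uninjured C57 and 466, 317, 362 and 247 CPM in uninjured MRL tendons, a log2 fold change of 2.12 (SE 0.23) and of 2.16 (SE 0.16) without both libraries labelled replicate 4; the groups did not overlap, as for 2.95% of genes in this direction. The libraries labelled replicate 4 were the lowest of their groups in Frzb, and since the gene was chosen on the labelled groups, its level in them does not bear on the labels. The 7 cartilage markers with a row (of 8 searched) had a summed level of 155 to 269 CPM in uninjured C57 tendons, where Matn1 and Matn3 were at 0 in all 4 libraries, and 424 to 555 CPM in uninjured MRL tendons, and their part in the level of Frzb was not tested. The 6 bone markers likewise did not overlap, at 32.3 to 61.3 CPM in uninjured C57, where Sp7 was at 0 throughout, and 83.2 to 233 CPM in uninjured MRL tendons, and their part in Frzb, Wif1 and Dkk2 was not tested. At 7 dpi Frzb was 26.1, 65.2, 32.9 and 64.7 CPM in C57 and 63.8, 225, 362 and 42.9 CPM in MRL tendons. These groups overlapped, and the log2 fold change of 1.85 (SE 0.65) was not called by edgeR (adjusted p = 0.144) and was 1.26 (SE 0.57) without BI-274. DESeq2 called Frzb with all injured libraries, but not without BI-181, where Frzb was lowest. The log2 fold change with injury was -0.79 (SE 0.31) in C57 and -1.01 (SE 0.58) in MRL tendons, and -0.89 (SE 0.31) and -1.12 (SE 0.63) without the uninjured library labelled replicate 4 of each strain, given without a test since the uninjured libraries were those it was chosen on. Without BI-274 the log2 fold change with injury in MRL was -1.65 (SE 0.51).

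Sfrp1 and Sfrp2 are close relatives that bind Wnt ligands. Sfrp1 was at 22.9, 27.0, 25.1 and 42.3 CPM in uninjured C57 tendons and at 66.3, 51.3, 61.2 and 29.5 CPM in uninjured MRL tendons. The last value of each series is the library labelled replicate 4, which was the highest of the C57 group and the lowest of the MRL group. The log2 fold change of uninjured MRL over C57 was 0.79 (SE 0.31, adjusted p = 0.621) with all libraries and 1.24 (SE 0.17) without both libraries labelled replicate 4, when it was called and the groups did not overlap (12.2% of genes did not overlap in this direction). At 7 dpi Sfrp1 was at 35.5, 38.6, 12.5 and 47.3 CPM in C57 and at 10.3, 6.62, 50.2 and 43.8 CPM in MRL tendons. The injured MRL libraries split into a pair below and a pair near the upper C57 values, and no strain difference at 7 dpi was called (log2 fold change of MRL over C57 -0.31, SE 0.64, adjusted p = 0.821). With injury the log2 fold change was 0.14 (SE 0.40) in C57 and -0.90 (SE 0.58) in MRL tendons, and 0.39 (SE 0.38) and -1.09 (SE 0.62) without the uninjured library labelled replicate 4 of each strain, none of them called.

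Sfrp2 was nearly uncounted without injury in either strain. It had 0.806, 0.583, 0 and 0 CPM in uninjured C57 and 0, 0, 2.39 and 0.804 CPM in uninjured MRL tendons, where 3 counts correspond to between 0.179 and 0.241 CPM. At 7 dpi it had 14.4, 33.0, 9.66 and 15.4 CPM in C57 tendons and 0.882, 2.49, 8.20 and 6.85 CPM in MRL tendons. Every injured C57 library therefore exceeded every injured MRL library and every uninjured library (7.2% of genes did not overlap in this direction with injury in C57, and 7.42% were lower without overlap in injured MRL). The log2 fold change with injury in C57 was 5.62 (SE 1.12), which missed the threshold (adjusted p = 0.055), and it was called by DESeq2 with all libraries and, at 5.21 (SE 0.88), by edgeR without the library labelled C57 uninjured replicate 4. It reached 6.41 (SE 1.30) without C57 uninjured replicate 1. In MRL it was 2.52 (SE 1.31, adjusted p = 0.237) and, without the library labelled MRL uninjured replicate 4, 2.54 (SE 1.53), but it ran from 2.09 to 4.10 over the 8 fits with a single library dropped, the highest without MRL uninjured replicate 3. Between the injured groups it was -2.01 (SE 0.66, adjusted p = 0.12). With so few counts in uninjured tendons, the size of the fold change rests on 12 and 9 counts in uninjured C57 replicates 1 and 2. Sfrp2 overlaps the antisense gene Gm26771, and their reads cannot be told apart.

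Sfrp4, a frizzled-related protein with known roles in bone and in fibrous tissue, had the smallest adjusted p between the strains at 7 dpi among the members that were tested. Uninjured C57 tendons had 16.5, 14.8, 12.8 and 2.36 CPM, and injured C57 tendons had 68.9, 147, 123 and 134 CPM. It rose with injury in C57 by 3.30 on the log2 scale (SE 0.53, adjusted p = 0.0282), a 9.87-fold change, and by 2.96 (SE 0.26) without the library labelled C57 uninjured replicate 4. Among 8 fits with a single library dropped, the call in C57 held in 2 (BI-181 or uninjured replicate 4 dropped), and it was also lost when all 16 libraries shared 1 fit, while over the 8 fits the log2 fold change stayed between 2.96 and 3.52. In MRL the levels were 1.52, 2.67, 24.6 and 2.09 CPM without injury and 4.92, 1.72, 16.8 and 5.12 CPM at 7 dpi. These groups overlapped, 1 library of each stood well above its other 3, and the log2 fold change was -0.11 (SE 0.94, adjusted p = 0.953), and -0.40 (SE 0.99) without the library labelled MRL uninjured replicate 4. It was 1.76 (SE 0.77) without MRL uninjured replicate 3 and -0.97 (SE 1.00) without BI-274, the 2 libraries that stood above the rest. The injured MRL libraries were all below the injured C57 libraries (as for 7.42% of genes), 16.8-fold lower by the fit (log2 fold change -4.07, SE 0.62, adjusted p = 0.00799), and this call held whichever of the 8 libraries was dropped, at -4.90 (SE 0.46) without BI-274. The difference between the injury effects of the strains was -3.47 on the log2 scale (SE 1.24) and was not called by edgeR (adjusted p = 0.344), nor was it without both libraries labelled replicate 4 (-3.45, SE 1.21, adjusted p = 0.349) or without MRL uninjured replicate 3 (-1.58, SE 0.90, adjusted p = 0.566).

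Markers of other cell types differed along with Wnt2, Sfrp2 and Sfrp4. The 8 macrophage markers summed to 1257 to 2207 CPM in injured C57 tendons and 625 to 1228 CPM in injured MRL tendons, against 261 to 678 and 291 to 493 CPM without injury, with none at 0 throughout a group. The 5 blood endothelium markers summed to 81.9 to 127 CPM in injured C57 and 0.084 to 24.2 CPM in injured MRL tendons. The 5 smooth muscle and pericyte markers summed to 322 to 3203 CPM and 191 to 289 CPM in the injured groups, with the highest value in BI-181. The 4 Schwann cell markers summed to 27.9 to 694 CPM in injured C57 and 14.1 to 22.1 CPM in injured MRL tendons. These 4 lists were all higher in injured C57 without overlap, whereas the 6 markers of sheath and connective tissue fibroblasts overlapped between the injured groups (6584 to 14057 CPM in C57 and 5941 to 12304 CPM in MRL). The part of these cells in the levels of Wnt2, Sfrp2 and Sfrp4 was not tested, and in bulk tendon fewer cells of a type and less RNA per cell cannot be told apart. In BI-181, the injured C57 library with high skeletal muscle markers, Wnt2 and Sfrp4 were the lowest of their group.

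**Figure D4:**
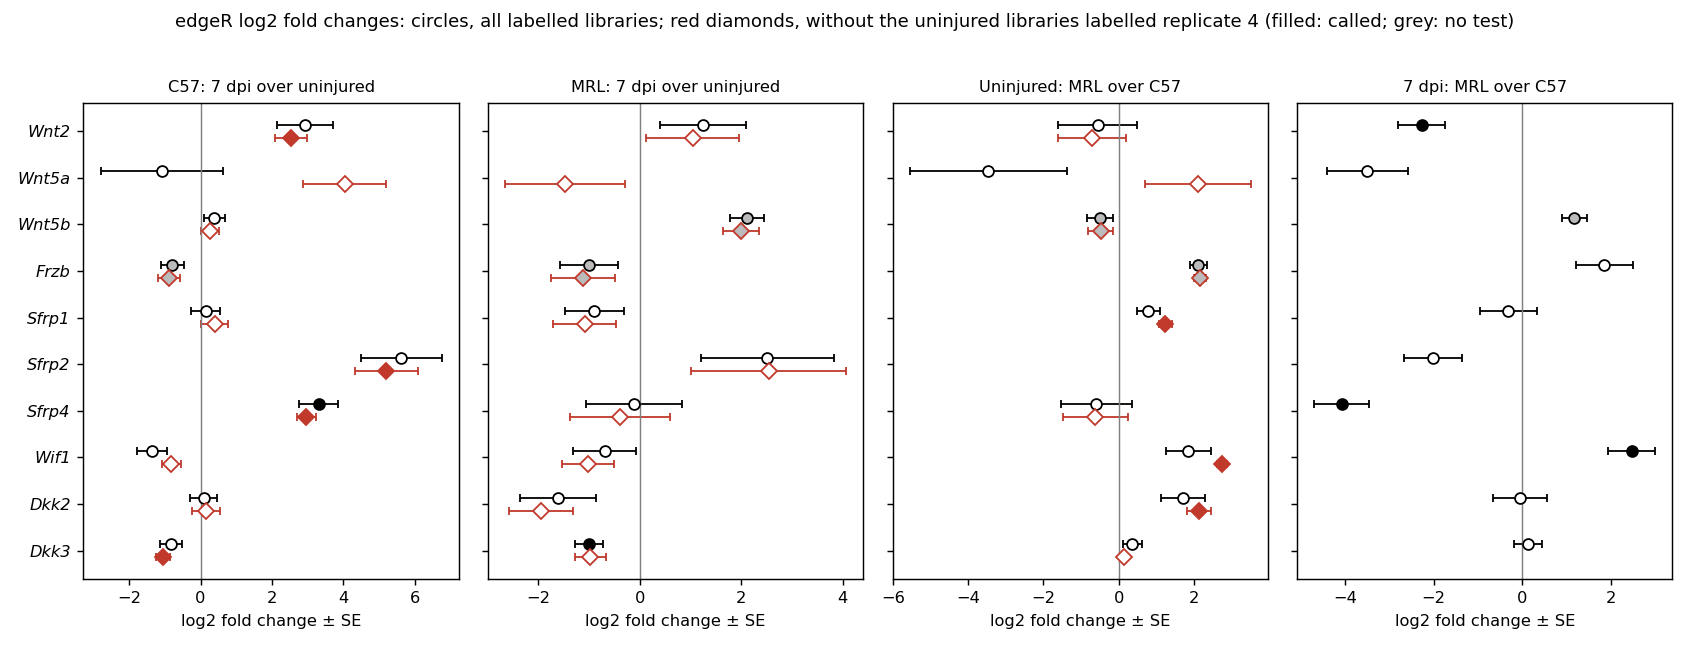
Log2 fold change (x axis, edgeR estimate with its SE as bars) of each gene in the 4 comparisons. Black circles use all libraries as labelled and red diamonds leave out the uninjured libraries labelled replicate 4; filled symbols were called and grey ones have no test because the gene was chosen on libraries of that comparison. Wnt5a changes sign between the fits with injury in C57, and Sfrp1, Wif1 and Dkk2 are called between uninjured strains without those libraries.

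Wif1 (Wnt inhibitory factor 1) was the most abundant member per kilobase and was called higher in injured MRL than in injured C57 tendons. Uninjured C57 tendons had 438, 426, 477 and 1218 CPM, and uninjured MRL tendons had 2486, 3156, 3415 and 489 CPM. In each series the last value, that of the library labelled replicate 4, fell away from the other 3 and towards the opposite strain. With all libraries the log2 fold change of uninjured MRL over C57 was 1.85 (SE 0.60, adjusted p = 0.621), and without both libraries labelled replicate 4 it was 2.74 (SE 0.13) and called. At 7 dpi the levels were 205, 328, 160 and 347 CPM in C57 and 943, 517, 3171 and 1247 CPM in MRL tendons, with no overlap (7.78% of genes did not overlap in this direction). The log2 fold change between the injured groups was 2.47 (SE 0.53, adjusted p = 0.0311), or 5.54-fold higher in MRL, and the call was lost without any 1 of the injured C57 libraries or without BI-275, at 1.81 (without BI-274) to 2.81 over the 8 fits. It was also lost with no filter on low counts (adjusted p = 0.0765) and in 1 fit of all 16 libraries (adjusted p = 0.0516). With injury the log2 fold change was -1.36 (SE 0.43, adjusted p = 0.187) in C57, where the groups did not overlap (3.91% of genes), and -0.69 (SE 0.62, adjusted p = 0.504) in MRL tendons. Without the uninjured library labelled replicate 4 of each strain it was -0.82 (SE 0.26, adjusted p = 0.105) in C57, still without overlap (9.83% of genes), and -1.02 (SE 0.51, adjusted p = 0.251) in MRL, where it was -1.39 (SE 0.57) without BI-274. The cartilage markers were likewise higher in injured MRL (173 to 1216 CPM) than in injured C57 tendons (67.3 to 126 CPM, with Matn1 at 0 in every injured library), and their part in Wif1 was not tested.

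Dkk2, which acts on Lrp5 and Lrp6, was higher in 3 of the 4 libraries labelled uninjured MRL than in any labelled uninjured C57. It had 16.5, 19.2, 6.79 and 16.5 CPM in uninjured C57 and 59.1, 59.3, 69.6 and 8.20 CPM in uninjured MRL tendons. The low value among the MRL libraries was that labelled replicate 4, as for Wif1, whereas the library labelled C57 uninjured replicate 4, at 16.5 CPM, lay within the range of its group. With all libraries its log2 fold change was 1.70 (SE 0.58, adjusted p = 0.621), and without both libraries labelled replicate 4 it was 2.13 (SE 0.32) and called. In injured tendons Dkk2 was at 19.0, 17.7, 9.98 and 18.0 CPM in C57 and at 20.9, 8.52, 31.8 and 2.67 CPM in MRL tendons. The injured MRL libraries lay on both sides of the C57 range, 2 above and 2 below it, with a log2 fold change of -0.05 (SE 0.61, adjusted p = 0.973). Within MRL the log2 fold change with injury was -1.61 (SE 0.75, adjusted p = 0.19) with all libraries and -1.94 (SE 0.63) without the library labelled MRL uninjured replicate 4, when the groups did not overlap (12.5% of genes) but the change was still not called.

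Dkk3, the divergent member of the Dkk family, was called lower after injury in MRL tendons. Uninjured tendons had 382, 390, 425 and 165 CPM in C57 and 442, 456, 423 and 454 CPM in MRL, and tendons at 7 dpi had 125.3, 227, 202 and 241 CPM in C57 and 222, 277, 282 and 102 CPM in MRL. Apart from the library labelled C57 uninjured replicate 4, at 165 CPM, every uninjured library was above every injured one. In C57 without that library, 9.83% of genes did not overlap in this direction. In MRL, Dkk3 fell by 1.00 on the log2 scale (SE 0.27, adjusted p = 0.0384), a call that ended when any 1 library other than BI-274 was dropped, at -1.14 to -0.76 and at -0.98 (SE 0.31) without the library labelled MRL uninjured replicate 4 (the groups did not overlap, as for 8.74% of genes in this direction). This call was also lost in 1 fit of all 16 libraries (adjusted p = 0.0646) and with no filter on low counts, where the log2 fold change of -0.996 fell short of the threshold for size. In C57 the log2 fold change was -0.82 (SE 0.31, adjusted p = 0.263), and without the library labelled C57 uninjured replicate 4 it was -1.04 (SE 0.20) and called. The 9 tenocyte markers summed to 18639 to 45859 CPM in uninjured and 17859 to 34855 CPM in injured C57 tendons. In MRL they summed to 40934 to 55640 CPM without injury and 28403 to 57192 CPM at 7 dpi. In every group the library lowest in these markers was also the lowest in Dkk3, and their part in Dkk3 was not tested. The strains did not differ by a call in Dkk3 with or without injury (log2 fold changes of MRL over C57 of 0.12, SE 0.32, at 7 dpi and 0.36, SE 0.26, without injury, or 0.13, SE 0.09, without both libraries labelled replicate 4).

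Whether the injury effect differed between the strains was tested with an interaction term over all 16 libraries. edgeR called 0 of 15947 genes, members included, where 1939 genes (12.2%) had an unadjusted p under 0.05 and DESeq2 called 198 genes (0.666% of 29726), also with no tested member among them. The largest terms of tested members were -3.47 for Sfrp4, -3.17 for Sfrp2 (SE 1.75) and -1.75 for Dkk2 (SE 0.91), all towards a lower injury effect in MRL. Without both libraries labelled replicate 4 edgeR again called 0 genes, and the terms were -3.45 for Sfrp4, -2.76 for Sfrp2 (SE 1.75) and -2.17 for Dkk2 (SE 0.83). With a single library dropped they ran from -4.34 to -1.58 for Sfrp4, from -3.95 to -1.56 for Sfrp2 and from -2.32 to -1.39 for Dkk2, and for Sfrp4 and Sfrp2 the smallest was that without MRL uninjured replicate 3. For Wnt5a the term moved from -0.05 (SE 1.90) to -5.57 (SE 1.74) without both libraries labelled replicate 4.

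Across the 16 libraries the levels of Wnt2, Sfrp2 and Sfrp4 ran together, with Pearson r of log2 CPM of 0.84 for Wnt2 and Sfrp4, 0.76 for Wnt2 and Sfrp2 and 0.73 for Sfrp2 and Sfrp4. Frzb ran with Wif1 (r = 0.73) and with Dkk3 (r = 0.74). Over the 14 libraries without those labelled uninjured replicate 4, the same values were 0.83, 0.74, 0.71, 0.82 and 0.71. These values describe libraries that share strain and injury group, and no test is attached. Among 15947 genes, those most like Frzb over the 16 libraries were Grem1, a BMP antagonist (r = 0.955), Comp, a cartilage and tendon matrix protein (r = 0.913), Cd200 (r = 0.891), Gm43800 (r = 0.889) and Gabbr1 (r = 0.889). Among those most like Wnt5b were Bax, a regulator of apoptosis (r = 0.902), Lrrc59 (r = 0.890), F2rl2 (r = 0.883) and Acot7 (r = 0.869). Over the 14 libraries r was at least 0.890 for the genes named with Frzb and 0.85 for those named with Wnt5b.

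Of the 89 other genes of the Wnt pathway with a row, 67 were tested with injury in C57, where 2 were called (1.07% of all genes were), both receptors and both lower: Fzd8 (log2 fold change -2.04, SE 0.26) and Fzd9 (-1.77, SE 0.34). The median log2 fold change of the 67 was -0.35, against -0.05 for all genes tested. Without the library labelled C57 uninjured replicate 4, Tcf7l2 was also called lower and Ccnd1 and Wisp2 higher, and the median of 68 genes was -0.19. With injury in MRL, 65 were tested, 3 were called higher and 5 lower, where 5.25% of all genes were called higher and 2.15% lower, with a median of -0.47 against -0.03. The lower ones were the receptors Fzd8 (-1.40, SE 0.35) and Fzd9 (-2.09, SE 0.39), the ligand Wnt9a (-1.29, SE 0.35), the transcription factor Tcf7l2 (-1.01, SE 0.29) and the beta-catenin cofactor Bcl9l (-1.27, SE 0.29). The higher ones were response genes: the cyclin Ccnd1 (3.57, SE 0.55) and the matricellular proteins Wisp1 (2.28, SE 0.39) and Wisp2 (1.34, SE 0.23). The 6 cell cycle markers also differed in level, with sums of 2.65 to 8.15 CPM in uninjured MRL and 155 to 547 CPM in injured MRL tendons, and their part in Ccnd1 was not tested. Without the library labelled MRL uninjured replicate 4, Fzd8 and Tcf7l2 were no longer called, and Rspo1 and Daam2 (lower) and Lgr6 and Myc (higher) were. Axin2, a widely used readout of beta-catenin signalling, was not called by edgeR in any of the comparisons: its log2 fold change with injury was -1.05 (SE 0.55, adjusted p = 0.399) in C57 and -1.15 (SE 0.47, adjusted p = 0.138) in MRL tendons. DESeq2 called Axin2 lower with injury in MRL (log2 fold change -1.15, SE 0.40, adjusted p = 0.0289), and over all 84 pathway genes it tested there it called 3 higher and 9 lower, against 6.83% of 26637 genes (4.26% higher and 2.56% lower).

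Among other ligands and antagonists with a mean of at least 1 CPM in some group, Wnt9a and Wnt11 were the ones above 5 CPM on average in all 4 groups. Wnt11 had 21.9 ± 9.77 CPM in injured C57 and 5.63 ± 3.17 CPM in injured MRL tendons (SD, n = 4), a log2 fold change of -2.01 (SE 0.54) that was not called by edgeR (adjusted p = 0.0715). Notum, which removes the lipid of Wnt ligands, was at 1.47 ± 0.34 to 6.35 ± 4.33 CPM, and Wnt6 at 1.75 ± 0.98 to 2.51 ± 2.14 CPM. Wnt4, Wnt10a, Wnt10b, Wnt3, Wnt7b, Wnt16, Dkkl1, Sostdc1 and Sfrp5 passed 1 CPM in a group mean, and for each of them the SD exceeded the mean in the group where it was highest. Wnt4, for example, was at 191 CPM in the library labelled C57 uninjured replicate 4 and at most 7.62 CPM in every other library. In injured tendons edgeR called 1 pathway gene of 68 between the strains, Ccnd1, higher in MRL (log2 fold change 1.70, SE 0.40), against 3.43% of all genes tested. DESeq2 called 9 of 85, against 5.5% of all genes: Wnt10a, Notum, Rspo1 and Ccnd1 higher and Wnt10b, Wnt11, Sfrp5, Sostdc1 and Fzd4 lower in MRL.

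Without injury and without both libraries labelled replicate 4, 64 pathway genes outside the members were tested between the strains, 2 were called higher and 1 lower in MRL, where 3.48% of all genes were called and 2.07% higher. Rspo1, a secreted protein that enhances Wnt signalling, had 98.4, 94.9 and 110 CPM in uninjured MRL replicates 1 to 3 and 0.403, 0.777 and 0 CPM in C57 replicates 1 to 3. In the libraries labelled replicate 4 it was at 0 in MRL and at 47.1 CPM in C57. Lgr6, a receptor for R-spondins, showed the reverse: 0.464, 0 and 0 CPM in uninjured MRL replicates 1 to 3 and 48.8, 48.4 and 60.9 CPM in C57 replicates 1 to 3, with 35.4 and 7.98 CPM in the libraries labelled MRL and C57 replicate 4. The third was Daam2, a formin-family protein that binds Dvl (log2 fold change 1.20, SE 0.20). At 7 dpi Lgr6 was counted in MRL tendons at 4.62, 56.0, 6.61 and 55.3 CPM, above its level in uninjured MRL replicates 1 to 3.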

How the data were processed

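RNA of single flexor tendons was sequenced in 16 libraries. The authors trimmed reads of 100 nt with Trimmomatic 0.36, aligned them with STAR 2.5.2b to GRCm38.p5 and deposited whole-number counts per gene symbol, without normalization. The submitters' processing notes also name Subread 1.5.0p3 and featureCounts. The annotation and strand setting are not given in the sources used here, and labels and methods describe different library kits (TruSeq against low-input pre-amplification). No molecular identifiers were named, and no limits for counting error are given.

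Groups came from the labels. Replicates are separate animals per the methods. Comparisons used edgeR 4.0.16 in R 4.3.3 (filterByExpr, TMM, robust quasi-likelihood test, Benjamini-Hochberg), called at an adjusted p under 0.05 and, except for the interaction, an absolute log2 fold change over 1. CPM used TMM library sizes, and log2 CPM a prior count of 2. Lengths came from GENCODE M21. The tests were first run on simulated data. Alternatives were DESeq2 1.42.0, other scalings, no filter, 1 fit of all libraries, a replicate block and leaving out libraries; fits and correlations without both uninjured libraries labelled replicate 4, fits without BI-181 and combined with DESeq2 were chosen after seeing the data. Members, pathway lists and marker lists were chosen with earlier results of these data known. Named pathway genes were those called in a comparison, ligands or antagonists with a group mean of at least 1 CPM, Axin2, and the 5 genes most like Frzb and Wnt5b, of which 1 is not reported here.

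Same-numbered uninjured libraries of the strains did not deviate together (correlations of deviations -0.262, 0.0157, -0.105 and -0.234 for numbers 1 to 4), and they are different animals.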

Additional observations from a re-analysis of the deposited data

Results flagged for a closer look

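Gaps between libraries were measured on log2 CPM, while the levels printed here are CPM. The 10 genes in 4 groups gave 40 sets of 4 libraries. In 7 sets a library had a gap to the nearest other that exceeded Dixon's 95% critical value as a share of the range. Chance gives such a gap in about 1 of 20 sets. Of the 7, 5 lay in the uninjured libraries labelled replicate 4. In the library labelled C57 uninjured replicate 4, Sfrp4 was at 2.36 CPM (12.8 to 16.5 CPM in the other 3), Wif1 at 1218 CPM (426 to 477 CPM) and Dkk3 at 165 CPM (382 to 425 CPM). In the library labelled MRL uninjured replicate 4, Wif1 was at 489 CPM (2486 to 3415 CPM) and Dkk2 at 8.20 CPM (59.1 to 69.6 CPM). The other 2 were Dkk2 in C57 uninjured replicate 3, at 6.79 CPM (16.5 to 19.2 CPM), and Dkk2 in the injured C57 library BI-184, at 9.98 CPM (17.7 to 19.0 CPM).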

How the results depend on the processing

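Member counts leave out Frzb and Wnt5b where they were chosen on libraries of the comparison. With injury in C57, 155 genes were called by edgeR with all labelled libraries, 907 by DESeq2 (3 members), 367 in 1 fit of all 16 libraries (with Sfrp2 called in place of Sfrp4), 1467 by DESeq2 without the library labelled C57 uninjured replicate 4 (4 members) and 867 without this library and BI-181 (3 members). Leaving out 1 library gave 10 to 750 genes and 0 to 4 members: 92 genes without BI-181, 24 without BI-183, 38 without BI-184, 15 without BI-185, and 19, 20, 10 and 750 without the libraries labelled uninjured replicates 1 to 4. With injury in MRL, DESeq2 called 1819 genes against 1057, and 0 members were called with no filter and in 1 fit of all libraries. Leaving out 1 library gave 689 (without MRL uninjured replicate 1) to 1260 genes and 0 to 1 members. Between uninjured strains, 104 genes were called by DESeq2, 1 with no filter, 0 to 3 when 1 library was left out and 497 (3 members) without both libraries labelled replicate 4. Between injured strains, 502 genes became 1490 by DESeq2 (6 members) and 1141 by DESeq2 without BI-181 (5 members, Frzb lost). They became 501 with no filter (2 members, Wif1 lost) and 227 in 1 fit of all libraries (1 member, Wnt2 and Wif1 lost). When 1 library was left out they became 231 to 481 (1 to 3 members, with Wnt5a gained without BI-184). Of these fits, 286 genes were called without BI-183, 231 without BI-185 and 255 without BI-272. The interaction had 198 genes by DESeq2 and 0 in every edgeR fit run. The causes of these changes were not tested.

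Signs changed as follows. With injury in C57, Wnt5a ran from -1.49 to 4.04 on the log2 scale when 1 library was left out, and was 4.12 by DESeq2 without the library labelled replicate 4 and 3.84 without this library and BI-181; Sfrp1 ran from -0.038 to 0.45 and Dkk2 from -0.15 to 0.30. In MRL, Sfrp4 ran from -0.97 to 1.76. Between uninjured strains Wnt5a ran from -4.87 to 1.70 and was 2.10 without both libraries labelled replicate 4. Between injured strains Dkk2 ran from -0.60 to 0.35 (0.066 by DESeq2 without BI-181), Dkk3 from -0.030 to 0.42 (-0.025) and Sfrp1 from -0.72 to 0.071. For the interaction Wnt5a reached 1.39 (-5.57 without both libraries labelled replicate 4), Frzb ran from -0.92 to 0.053, Wif1 from -0.097 to 0.89 (-0.27 without both libraries labelled replicate 4) and Dkk3 from -0.39 to 0.0066 (0.0032 without both). Of these, Wnt5a was called by DESeq2 with injury in C57 without the library labelled replicate 4. Total counts in place of TMM moved the log2 ratio of group means of Dkk3 between injured strains from 0.15 to -0.0004, and DESeq2 size factors and total counts turned the sign of no other ratio.

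The uninjured groups share replicate numbers that do not mark shared animals. With the replicate number as a block, 0 genes were called, as without it, and Wnt5a was 0.47 on the log2 scale in place of -3.47.

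Limits: groups hold 4 libraries, and the labels of 2 uninjured libraries are in doubt. Sfrp2, Wnt2 and Wnt5a had low counts in most uninjured libraries and imprecise fold changes, and the source of the imprecision was not tested.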
